A study of Mus musculus with 2 samples.

Results

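The 48 interferon-stimulated genes described here are genes that cells switch on when an interferon binds its receptor. They were chosen by gene symbol, and all 48 were found among the 33640 symbols of the expression table. Each had a mean of at least 1 TPM over both libraries. Values are TPM, the share of a library's transcripts that come from a gene, corrected for transcript length, so that levels can be compared between genes. The tissue was mitral valve of 5-month-old mice, wild type (WT) or heterozygous for the Fbn1C1039G allele (Fbn1C1039G/+), a missense allele of the fibrillin-1 gene carried by a mouse model of Marfan syndrome. For each genotype, valves of 8 hearts from male and female mice were pooled into 1 RNA sample and 1 library, and the strain is not given in the sources used here. With 1 library per genotype there are no replicates, so no error, test or p-value can be given, and every difference below is between these 2 libraries. The design asks which genes differ in level between valves of the 2 genotypes.

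Type I interferons signal through Ifnar1 and Ifnar2, type II interferon (interferon gamma) through Ifngr1 and Ifngr2. Type I signals assemble a factor that includes STAT2 and IRF9 and binds the interferon-stimulated response element (ISRE), while interferon gamma acts mainly at the gamma-activated site (GAS). Many target genes respond to both, so the split into type I targets and gamma-leaning genes used below is one of degree. In tissue, products of these genes block viral replication, sense foreign nucleic acid, present antigen and attract lymphocytes.

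In the mutant pool 46 of the 48 genes had more TPM than in the WT pool, and the type I targets stood further above WT than the gamma-leaning ones. Differences are mutant minus WT on the log2(TPM + 1) scale, which understates those of low genes, and TPM pairs are given in the order WT, mutant. Of the 12 type I targets (the Ifit, Oas and Mx families and Isg15), 8 were at least 2-fold higher, with a median difference of 1.18. None of the 9 gamma-leaning genes (Cxcl9, Gbp2, Gbp3, Gbp7, Irf1, Igtp, Psmb8, Psmb9 and Tap1) was, and their median was 0.31. Over all 48 genes, 11 were at least 2-fold higher, 0 at least 2-fold lower, and the median difference was 0.54. Among all 17004 genes with a mean of at least 1 TPM, 818 were at least 2-fold higher, which is 4.81%, and 293 at least 2-fold lower, which is 1.72%. Most genes of the mutant pool lay slightly above WT, with a median difference of 0.14 over these 17004 genes and 64.9% above 0. Centring on the median of genes with a mean of at least 10 TPM gave 659 higher and 364 lower genes, and quantile normalization 540 and 462. Relative to the median of all 17004 genes, the 48 genes had a median of 0.40. The type I targets had 1.04 and the gamma-leaning genes 0.17 on this basis, and 43 of the 48 lay above the all-gene median.

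Promoter sequence is shown for 6 members with the ISRE letters and the largest differences among members with a mean of at least 5 TPM, and for 2 abundant gamma-leaning members with the GAS letters. The ISRE was searched as GAAA, any 2 bases and another GAAA, and the GAS as TTCNNNGAA, on both strands, in RefSeq windows from 250 bases before to 50 bases after each transcript start (GRCm38.p6, the mm10 assembly). Each stretch is 120 bases long, runs 5′ to 3′ along the gene and touches no annotated exon of GENCODE release M21. Capitals mark the matches, which for an ISRE on the opposite strand read TTTC, any 2 bases and TTTC. The ISRE group comes first.
Cxcl10: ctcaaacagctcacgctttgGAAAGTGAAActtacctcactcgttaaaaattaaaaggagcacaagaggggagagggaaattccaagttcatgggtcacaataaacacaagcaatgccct
Oas1a: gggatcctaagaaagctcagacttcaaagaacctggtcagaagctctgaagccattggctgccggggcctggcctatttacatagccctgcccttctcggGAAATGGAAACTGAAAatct
Isg15: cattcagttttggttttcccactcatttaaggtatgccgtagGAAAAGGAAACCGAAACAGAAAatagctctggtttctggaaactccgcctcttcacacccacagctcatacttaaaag
Oas3: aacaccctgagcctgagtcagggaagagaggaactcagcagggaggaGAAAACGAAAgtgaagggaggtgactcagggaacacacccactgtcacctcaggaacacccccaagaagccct
Ifit1: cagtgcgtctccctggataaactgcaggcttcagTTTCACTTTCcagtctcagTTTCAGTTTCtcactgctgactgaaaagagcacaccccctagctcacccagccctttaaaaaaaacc
Ifit3: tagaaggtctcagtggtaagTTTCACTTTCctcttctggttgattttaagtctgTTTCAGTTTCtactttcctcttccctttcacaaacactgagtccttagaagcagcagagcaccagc
Irf1 (GAS): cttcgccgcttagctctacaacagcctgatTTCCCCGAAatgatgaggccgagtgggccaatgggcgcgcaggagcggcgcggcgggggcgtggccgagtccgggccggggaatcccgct
Igtp (GAS): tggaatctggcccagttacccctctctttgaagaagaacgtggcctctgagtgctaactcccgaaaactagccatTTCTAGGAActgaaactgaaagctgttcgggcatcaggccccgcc

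The Cxcl10 stretch lies at chr5:92349003-92349122 (minus strand), with its match at −213 from the transcript start. Oas1a (chr5:120907526-120907645, minus strand) has a pair of overlapping matches, at −20 and −14, and also holds the GAS letters at −98, printed in lower case. Isg15 (chr4:156200819-156200938, minus strand) has 3 overlapping matches, at −78, −72 and −66, which form 1 run of GAAA repeats. The single match of Oas3 (chr5:120777662-120777781, minus strand) is at −75. In Ifit1 (chr19:34640751-34640870, plus strand) the matches are at −104 and −85, and in Ifit3 (chr19:34583353-34583472, plus strand) at −156 and −122. The GAS letters of Irf1 (chr11:53769894-53770013, plus strand) are at −90 and those of Igtp (chr11:58199436-58199555, plus strand) at −45. Igtp also holds the ISRE letters at −34, printed in lower case directly after its GAS match.

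The Ifit genes encode proteins that bind foreign RNA and hold back its translation. They lie together on chromosome 19 between 34550694 and 34650009 (mm10). Ifit1 was at 12.9 TPM in WT and 27.0 TPM in mutant valves, a difference of 1.01. Ifit3 was at 27.0 and 52.2 TPM, a difference of 0.92. Ifit2 was at 12.6 and 21.4 TPM (0.73) and Ifit3b at 9.19 and 13.6 TPM (0.52). The 4 genes were thus all higher in the mutant pool, from 1.48-fold for Ifit3b to 2.10-fold for Ifit1 by the ratio of TPM. Ifit3 and Ifit3b are near copies, and 61.8% of the 31-base words of Ifit3 transcripts also occur in Ifit3b, so their reads may be divided between them by an estimate. Summed, the pair was at 36.2 and 65.8 TPM, a difference of 0.84.

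The Oas genes encode enzymes that make 2-5A, the messenger that activates RNase L, and Oasl1 and Oasl2 are related proteins that differ in activity. Oasl1 had the largest difference of the type I targets, at 1.91 TPM in WT and 7.67 TPM in mutant valves, a difference of 1.58. Oas1a was at 4.57 and 14.6 TPM, a difference of 1.49. Of its 31-base words 68.8% occur in other genes, nearly all in Oas1g, which was at 4.57 and 12.1 TPM. The sum of Oas1a and Oas1g was 9.14 and 26.7 TPM, a difference of 1.45. Oas2 was at 7.54 and 19.9 TPM (1.29) and Oas3 at 3.20 and 8.07 TPM (1.11). Oasl2 was by far the most abundant of the family, at 82.4 and 150.2 TPM, and its difference of 0.86 was the smallest of the 5. Oasl2 thus added more TPM than the other 4 together, while being the 1 Oas member short of 2-fold.

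Mx1 and Mx2 encode dynamin-like antiviral GTPases and lie next to each other on chromosome 16. Mx1 was at 4.44 and 12.0 TPM, a difference of 1.25, and Mx2 at 6.05 and 16.6 TPM, a difference of 1.32. At most 8.12% of the 31-base words of either gene are shared with another gene. Isg15 encodes a ubiquitin-like protein that is joined to other proteins. It was at 11.0 and 30.1 TPM, a difference of 1.37, and 12.8% of its words are shared, mostly with an unnamed clone gene. The TPM of the 12 type I targets summed to 183 in the WT and 373 in the mutant pool, a ratio of 2.04.

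**Figure D1:**
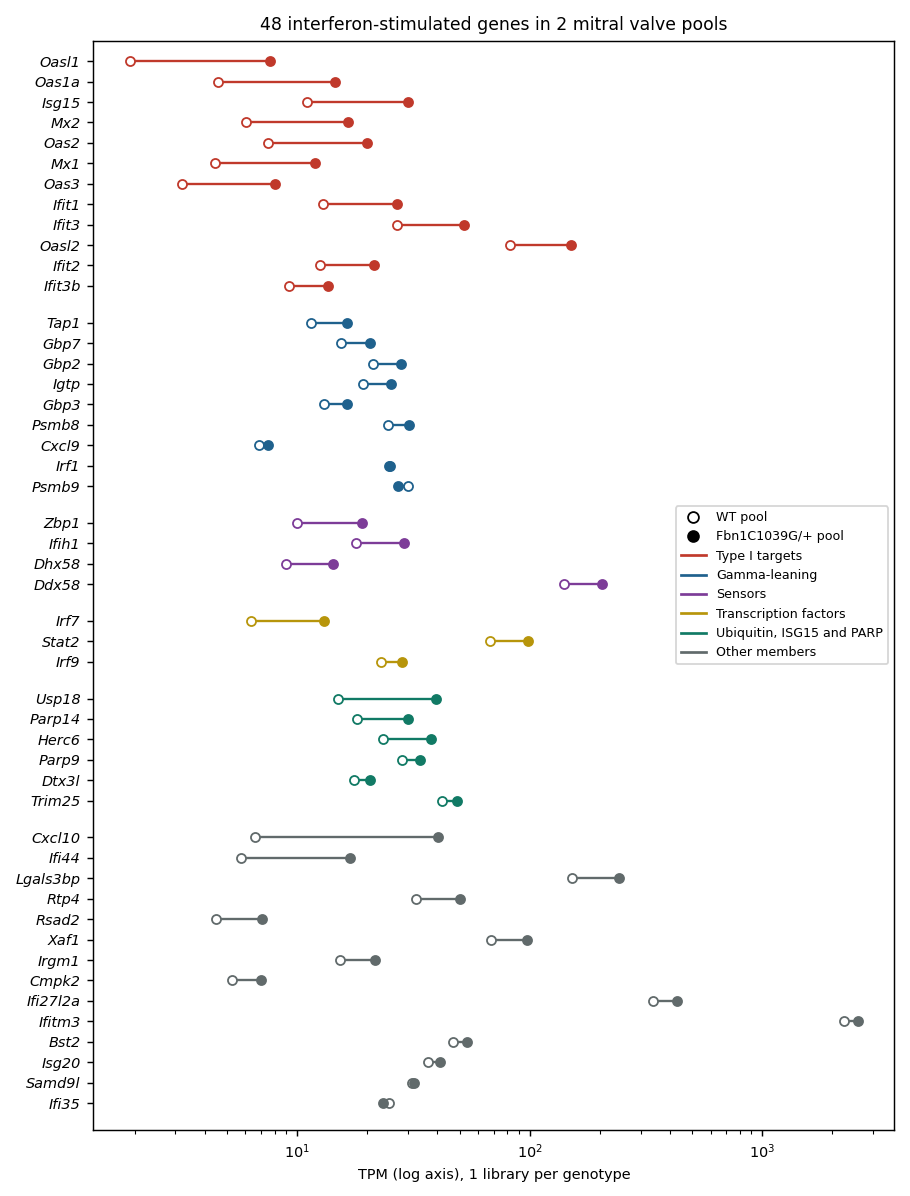
TPM of each of the 48 genes in the WT pool (open circles) and the Fbn1C1039G/+ pool (filled circles), 1 library each, on a log axis and grouped by role. The filled circle lies to the right for 46 genes, and the gaps of the type I targets, from Oasl1 (1.91 and 7.67 TPM) to Ifit3b (9.19 and 13.6 TPM), are wider than those of the gamma-leaning genes.

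Among the gamma-leaning genes the chemokine Cxcl9, a ligand of Cxcr3 that is induced chiefly by interferon gamma, was at 6.85 TPM in WT and 7.53 TPM in mutant valves, a difference of 0.12. Irf1, an interferon-induced transcription factor gene, was at 24.9 and 25.0 TPM, a difference of 0.01. These 2 differences lay below the median over all genes. The guanylate-binding proteins attack vacuoles of intracellular pathogens. Their genes lie together on chromosome 3, and Gbp2 was at 21.2 and 28.0 TPM (0.38), Gbp3 at 13.0 and 16.4 TPM (0.31) and Gbp7 at 15.4 and 20.5 TPM (0.39). Igtp, an immunity-related GTPase, was at 19.2 and 25.2 TPM (0.38). All 4 GTPase genes were thus within a narrow band, at 1.26-fold to 1.33-fold by TPM.

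The other 3 gamma-leaning genes serve antigen presentation by MHC class I and adjoin each other on chromosome 17. Tap1, the peptide transporter subunit, was at 11.4 and 16.3 TPM, and its difference of 0.48 was the largest of the 9. Psmb8, an immunoproteasome subunit, was at 24.7 and 30.4 TPM (0.29). Psmb9, another such subunit, was at 30.1 and 27.1 TPM, a difference of −0.15. Psmb9 and Tap1 are read in opposite directions and their annotated spans overlap. Whether reads were counted by strand is not given in the sources used here, so reads from the overlap cannot be assigned with certainty. The lowest type I target (Ifit3b, 0.52) still lay above the highest gamma-leaning gene (Tap1, 0.48). The 2 sets as chosen thus did not overlap in their differences. The gap was narrow, the Tap1 value carries the read limit just given, and the result depends on which genes were placed in each set. Of the type I targets Rsad2 and Cmpk2, left outside both sets, Rsad2 (0.55) lay above Tap1 and Cmpk2 (0.36) below it. All 27 members outside both sets ranged from −0.09 to 2.44, so they lay on both sides of the gap. The sum of the 9 was 167 and 197 TPM, a ratio of 1.18 against 2.04 for the type I targets. No test of this contrast between gene sets is possible with 1 library per genotype.

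**Figure D2:**
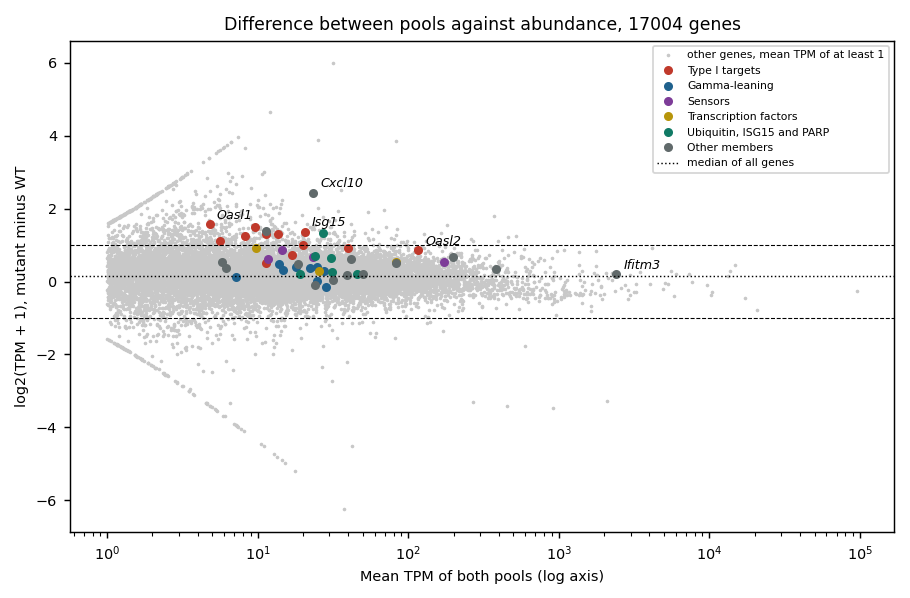
Difference in log2(TPM + 1), mutant minus WT, against the mean TPM of both pools (log axis) for 17004 genes in grey, with the 48 interferon-stimulated genes colored by role. Dashed lines mark 2-fold and the dotted line the median over all genes (0.14). Cxcl10 (2.44) is the highest of the 48, and 43 of the 48 lie above the dotted line.

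Differences between the pools were wider at low abundance, so the 48 genes were also set beside genes of like TPM. Of the 20 members with a mean from 5 to 20 TPM, 7 were at least 2-fold higher, against 4.75% of all 5453 genes in that range. From 20 to 100 TPM this held for 3 of 22 members, against 1.55% of 5737 genes. None of the 5 members at 100 TPM or above was, against 0.863% of 1390 genes. The median difference of members was 0.67 from 5 to 20 TPM, 0.38 from 20 to 100 TPM and 0.55 at 100 TPM or above, beside 0.14, 0.12 and 0.05 over all genes of these ranges. The 1 member below 5 TPM, Oasl1, was at least 2-fold higher, as were 10.4% of genes from 1 to 5 TPM.

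Cytosolic sensors of nucleic acid are themselves induced by interferon. Ddx58, which encodes the RNA sensor RIG-I, was at 140.3 and 206 TPM, a difference of 0.55. Ifih1, which encodes the long-RNA sensor MDA5, was at 17.9 and 28.9 TPM (0.66), and Dhx58, the related regulator LGP2, at 8.99 and 14.3 TPM (0.62). Zbp1, a sensor of Z-form nucleic acid that can start cell death, was at 10.01 and 19.0 TPM (0.86). The 4 sensors were thus 1.47-fold to 1.90-fold higher by TPM, and none reached 2-fold on the log2(TPM + 1) scale.

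Of the 3 transcription factors Irf7 differed most. This factor, which drives further interferon expression, was at 6.37 and 13.0 TPM, a difference of 0.93 and 2.04-fold by TPM. Stat2 was at 67.6 and 98.3 TPM (0.53) and Irf9, its partner, at 22.98 and 28.2 TPM (0.28).

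Enzymes that attach or remove ubiquitin, ISG15 or ADP-ribose made up a further 6 members. Usp18, which removes ISG15 and dampens signaling at the type I receptor, was at 15.1 and 39.6 TPM, a difference of 1.33. Herc6, the ligase that joins ISG15 to proteins in mice, was at 23.5 and 37.5 TPM (0.66). Parp14, an ADP-ribosyltransferase, was at 18.1 and 29.9 TPM (0.70). Its neighbors on chromosome 16 differed less, with Parp9 at 28.2 and 33.9 TPM (0.26) and its partner ligase Dtx3l at 17.5 and 20.5 TPM (0.22). The spans of Parp9 and Dtx3l overlap on opposite strands, which carries the same limit as for Psmb9 and Tap1. Trim25, a ubiquitin ligase that acts on RIG-I, was at 42.0 and 48.8 TPM (0.21). Outside the 48 genes, the enzymes that activate and carry ISG15 were at 23.4 and 35.7 TPM (Uba7, 0.59) and at 38.5 and 34.5 TPM (Ube2l6, −0.16). Genes of the ISG15 cycle thus ranged from slightly below WT (Ube2l6) to more than 2-fold above it (Isg15 and Usp18).

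Cxcl10 had the largest difference of all 48 genes. It encodes a chemokine that draws Cxcr3-bearing lymphocytes and is induced by type I interferon, interferon gamma and other inflammatory signals. It was at 6.60 TPM in the WT and 40.2 TPM in the mutant pool, 6.10-fold by TPM and a difference of 2.44. Cxcl9, its neighbor on chromosome 5, differed by 0.12 as given above. The members of this pair were 2.32 apart, the widest gap of the 9 groups of members that lie within 100 kb of each other. For comparison, the spread was 0.06 for Mx1 and Mx2, 0.08 for the 3 Gbp genes and 0.49 for the 4 Ifit genes.

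Ifi44, a cytoplasmic protein of unsettled function, was at 5.76 and 16.8 TPM, a difference of 1.40. It completed the 11 genes at least 2-fold higher. Rsad2, which encodes viperin, was at 4.496 and 7.04 TPM (0.55), and its neighbor Cmpk2, a nucleotide kinase, at 5.25 and 7.02 TPM (0.36). These are classic type I targets that did not reach 2-fold. Rtp4 was at 32.4 and 50.4 TPM (0.62), Xaf1, a promoter of cell death, at 68.5 and 97.7 TPM (0.51), and the secreted glycoprotein gene Lgals3bp at 152 and 243 TPM (0.67). Irgm1, an immunity-related GTPase, was at 15.3 and 21.7 TPM (0.48).

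Ifitm3 and Ifi27l2a, the most abundant members, lay close to the median of all genes or slightly above. Ifitm3, which blocks entry of enveloped viruses, was at 2251 and 2585 TPM, a difference of 0.20, and Ifi27l2a, a mitochondrial protein gene, at 339 and 429 TPM (0.34). Bst2, which tethers budding virus, was at 46.7 and 53.7 TPM (0.20), and the exonuclease gene Isg20 at 36.6 and 41.3 TPM (0.17). Samd9l, an inhibitor of translation, was at 31.1 and 31.8 TPM (0.03). Ifi35 was at 24.9 and 23.4 TPM, a difference of −0.09, and with Psmb9 was the other of the 2 members with less TPM in the mutant pool. Under other scalings Irf1 and Samd9l, and under quantile normalization also Cxcl9, were below 0.

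Interferon transcripts themselves were scarce. Of 21 interferon genes searched for, 16 were listed at 0 in both pools, among them Ifnb1 and 11 Ifna genes. Ifng was listed at 0 in the WT pool and at 0.194 TPM in the mutant pool. Ifnz was likewise at 0 and 0.502 TPM, and Ifna13 at 0.292 and 0 TPM. Only Ifnk (1.35 and 2.24 TPM), the interferon of skin keratinocytes, and Ifna16 (1.61 and 2.01 TPM) had a mean of at least 1 TPM. The depth of both libraries is unknown, so a value of 0 is no measure of absence.

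Most receptors and signal carriers were above these levels, with Ifnlr1, the type III receptor chain, an exception at 1.12 and 1.63 TPM. All 11 genes of receptors, JAK kinases and STATs were higher in the mutant pool, 0 of them by at least 2-fold, with a median difference of 0.30. Over all genes, 64.9% were above 0, 4.81% were at least 2-fold higher and the median was 0.14, which applies to each list of this paragraph. Ifnar1 was at 43.3 and 58.8 TPM, Ifnar2 at 128 and 146 TPM, Ifngr1 at 94.3 and 116 TPM and Ifngr2 at 43.4 and 56.3 TPM. Of 21 genes that act upstream in nucleic acid sensing, 18 were higher in the mutant pool, 0 of them by at least 2-fold, with a median of 0.48. The largest difference among them was that of Tbk1, the kinase that activates IRF3, at 139 and 262 TPM (0.91). Mb21d1, the DNA sensor cGAS, was at 2.24 and 4.97 TPM (0.88). Of 10 negative regulators 9 were higher in the mutant pool, with a median of 0.32, and 2 were at least 2-fold higher. These were Usp18, already counted among the members above, and Ptpn6, the phosphatase SHP-1 of blood cells, at 17.7 and 46.9 TPM (1.36). Of the JAK-STAT inhibitors, Socs3 was at 5.11 and 7.81 TPM (0.53), and Socs1, the 1 regulator below 0, at 2.12 and 1.43 TPM (−0.36).

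**Figure D3:**
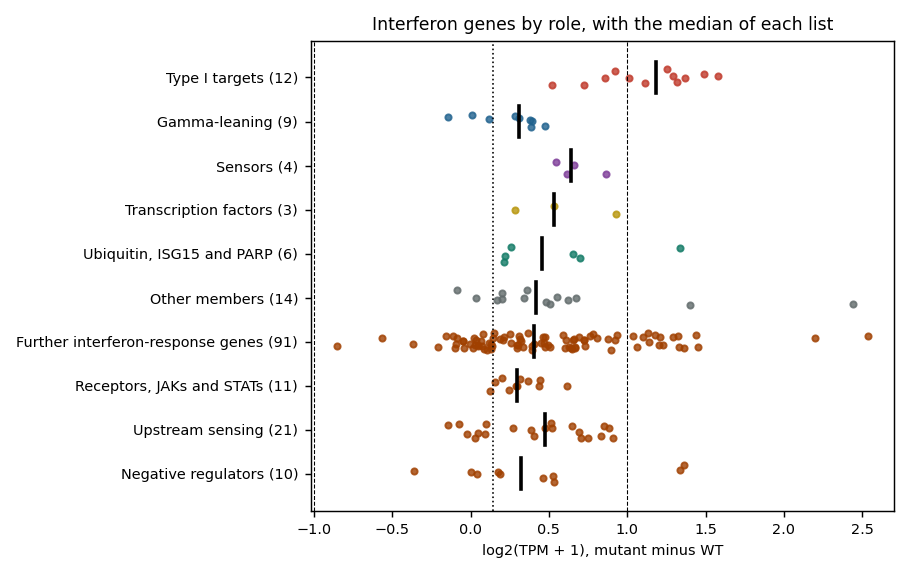
Difference in log2(TPM + 1), mutant minus WT, for each gene (points) by role, with the number of genes in brackets and a bar at each median. Points are spread vertically for legibility, the dotted line is the median over all genes (0.14) and the dashed lines mark 2-fold. Type I targets have the highest median (1.18), and Usp18 appears in 2 rows.

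A further 91 interferon-response genes outside the 48 were measured, of which 78 were higher in mutant valves, beside 64.9% of all genes. At least 2-fold higher were 17, beside 4.81% of all genes, and at least 2-fold lower were 0, beside 1.72%. The median was 0.40. The p200 family, DNA-binding proteins of the innate response, gave 6 of the 17, with Ifi204 at 16.6 and 43.2 TPM (1.33), Ifi211 at 6.69 and 20.04 TPM (1.45), Ifi209 at 3.96 and 11.4 TPM (1.32) and Ifi205, Ifi207 and Ifi213 between 1.04 and 1.20. The antiviral Trim30a was at 34.6 and 90.9 TPM (1.37), the helicase gene Ddx60 at 12.4 and 28.4 TPM (1.14) and Ifitm1 at 6.22 and 18.6 TPM (1.44). Slfn1 (0.0957 and 5.36 TPM) and Slfn4 (0.452 and 5.66 TPM), of the schlafen family of blood cells, had the largest differences, at 2.54 and 2.20, and passed the filter only through the mutant pool. The others were Oas1g, Ifit1bl1, Tgtp2, Phf11a, Phf11b and Ms4a4c.

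Kin of the gamma-leaning genes in the same list differed among themselves. The 7 other Gbp genes measured had a median difference of 0.01, with Gbp4 at 20.2 and 18.7 TPM and Gbp6 at 29.7 and 32.8 TPM. For 11 genes of MHC class I, the proteasome and regulators of MHC class I or II genes the median was 0.10. B2m, the MHC class I light chain, was at 3153 and 3764 TPM (0.26), and Tap2, the partner of Tap1, at 23.6 and 18.0 TPM (−0.37). Within this set Nlrc5, an activator of MHC class I genes, was the highest, at 9.25 and 18.4 TPM (0.92). Both subsets were drawn after the values were seen. Other GTPase genes of the immunity-related family lay on both sides of 0, with Tgtp2 at 6.24 and 16.7 TPM (1.29), its paralog Tgtp1, between which reads may be split, at 1.83 and 0.905 TPM (−0.57), Ifi47 at 15.1 and 26.6 TPM (0.78), Iigp1 at 16.1 and 24.9 TPM (0.60) and Irgm2 at 32.3 and 31.3 TPM (−0.04). The other abundant gene of the list, Ifitm2, was at 1799 and 1839.8 TPM (0.03).

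A promoter window was found for 38 of the 48 members. Those without one were Oas2, Mx1, Mx2, Dhx58, Zbp1, Usp18, Parp9, Parp14, Ifi27l2a and Rtp4. The ISRE letters were in a window of 18 of the 38, or 47.4%, against 3.99% of all 27025 genes with a window. By group they were in 6 of 9 type I targets, 4 of 9 gamma-leaning genes (Gbp2, Gbp3, Gbp7 and Igtp) and 8 of the other 20. The GAS letters were in 10 of the 38, or 26.3%, against 9.55% of all genes. By group they were in 2 of 9 type I targets (Ifit2 and Oas1a), 4 of 9 gamma-leaning genes (Gbp7, Irf1, Igtp and Psmb8) and 4 of the other 20. Genes with several transcript starts have more windows and so more chances of a match, and a match is a description of the letters only.

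Members with the ISRE letters had a median difference of 0.54, and those without 0.32. Within the type I targets these medians were 1.06 over 6 genes and 0.86 over 3. Within the gamma-leaning genes they were 0.38 over 4 and 0.12 over 5. The ISRE-bearing gamma-leaning genes were thus the Gbp and Igtp group described above, and their differences stayed below those of the ISRE-bearing type I targets. Oasl1, with the largest difference of the type I targets, had neither set of letters in its window. Irf1, whose printed stretch holds the GAS letters and whose windows hold no ISRE letters, differed by 0.01. For the GAS letters the medians were 0.24 over the 10 members with them and 0.54 over the 28 without. Within the type I targets they were 1.11 over 2 genes with the letters and 1.01 over 7 without, and within the gamma-leaning genes 0.33 over 4 and 0.31 over 5, so that the direction over all members did not hold within either group. Among the other members they were 0.18 over 4 and 0.54 over 16.

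**Figure D4:**
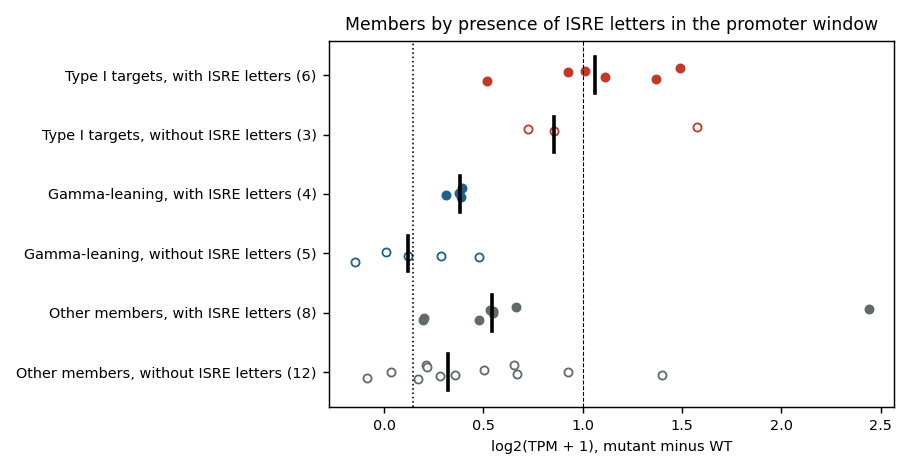
Difference in log2(TPM + 1), mutant minus WT, for the 38 members with a promoter window, split by group and by whether the ISRE letters occur (filled) or not (open), with the number of genes in brackets and a bar at each median. The medians are 1.06 and 0.86 for type I targets, 0.38 and 0.12 for gamma-leaning genes and 0.54 and 0.32 for the other members. The dotted line is the median over all genes (0.14) and the dashed line 2-fold.

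Marker lists of other cell types differed between the same pools, beside 4.81% of all genes at least 2-fold higher, 1.72% at least 2-fold lower and 64.9% above 0. In bulk tissue a different number of cells of a type and a different amount of RNA per cell cannot be told apart. Of 8 neutrophil markers measured 5 were at least 2-fold higher in the mutant pool, 1 of them (S100a8) with a WT value below 1 TPM, and 2 were lower. The list of 14 summed to 20.9 TPM in the WT and 116 TPM in the mutant pool. The defining markers Ly6g and Elane were listed at 0 in both. Of 10 monocyte markers 6 were at least 2-fold higher, among them Ccr2 (11.8 and 35.04 TPM), 3 of them (Plac8, Chil3 and Treml4) with a WT value below 1 TPM, so that they passed the filter only through the mutant pool. The list summed to 682 and 1059 TPM, most of it Vcan and Fn1, which valve cells also express. Macrophage markers were higher for 14 of 15 genes with 0 at 2-fold. They summed to 2245 and 2682 TPM, a ratio of 1.19, and most of the sum was Lyz2 (1288 and 1587 TPM). Of 7 dendritic cell markers measured 2 were at least 2-fold higher. For plasmacytoid dendritic cells, a main source of type I interferon, 4 of 8 measured markers were higher and the list summed to 529 and 541 TPM, with the defining marker Siglech at 4.79 and 4.17 TPM. Most of this sum was Tcf4, followed by Cox6a2 and Bst2, so it says little about the level of rarer markers such as Siglech. Bst2 stands in this list and among the 48. The part of these cell types in the interferon-gene differences was not tested.

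Most T and NK cell markers went the other way, with 6 of 12 at least 2-fold lower and 1 (Klrd1) at least 2-fold higher. Cd3d, at 19.7 and 26.9 TPM (0.43), was also higher. The list summed to 177 and 86.1 TPM. Ncr1, a defining NK cell marker, was listed at 0 in both pools. Of 3 B cell markers measured 0 were 2-fold different. The 4 globin genes summed to 6774 and 664 TPM, and cardiac muscle markers to 2471 and 1734 TPM. Of 10 endothelial markers 8 were lower and 2 higher in the mutant pool, with a median of −0.16, while the list summed to 735 and 731 TPM. Of 10 markers of valve interstitial cells, the resident fibroblasts of the labeled tissue, 7 were higher and 3 lower, with a median of 0.21. In both lists 0 were 2-fold different. The interstitial list summed to 24279 and 23876 TPM, led by Dcn at 11409 and 9304 TPM, so this sum says little about its other genes. Transcripts of these interstitial cell markers were thus abundant in both libraries. With globin, mitochondrial, ribosomal protein, predicted and Rik genes left out and TPM rescaled, 10 of the 48 genes were at least 2-fold higher. This held for 3.28% of the 15216 genes then measured. The medians were 1.19 for type I targets and 0.27 for gamma-leaning genes.

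**Figure D5:**
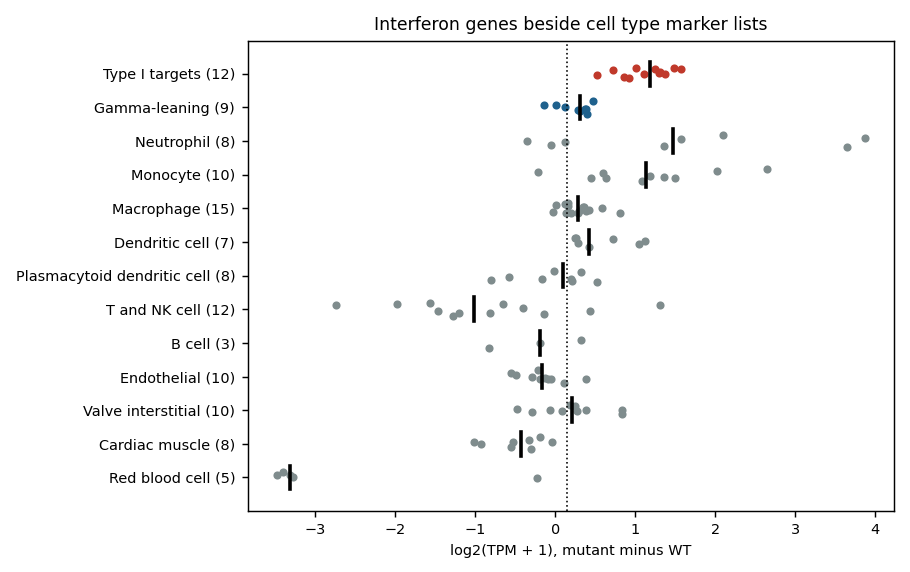
Difference in log2(TPM + 1), mutant minus WT, for type I targets and gamma-leaning genes beside the measured genes of each cell type marker list, with their number in brackets and a bar at each median. The dotted line is the median over all genes (0.14). Neutrophil markers have a median of 1.47, with 2 below 0, and monocyte markers a median of 1.13, with 1 below 0. Macrophage markers have a median of 0.28. The medians of T and NK cell and red blood cell markers lie below 0, with 2 T and NK cell markers above 0.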

How the data were processed

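Per the labels' protocols, valve tissue of 8 hearts was pooled per genotype, RNA was amplified (NuGEN Ovation), and libraries were made with the Nextera XT kit. The deposited TPM values were made by the authors. The submitters' processing notes name Trimmomatic, HISAT2, kallisto and mm10. The sources used here do not state versions, settings, the annotation or the step from transcripts to gene symbols. Amplified RNA without stated molecular identifiers means that low values can rest on few molecules, and TPM keeps no depth, so no interval was computed.

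The 2 columns were matched to genotypes by their labels. Differences were log2(TPM + 1), mutant minus WT, and 2-fold means a difference of 1 or more, either way, for genes averaging at least 1 TPM. Coordinates and shared 31-base words came from GENCODE M21, promoter windows from RefSeq (GRCm38.p6). Genes named from other lists were those at least 2-fold different and the 2 most abundant, with all ligands, receptors and signaling genes eligible; Nlrc5, Tap2, Gbp4, Gbp6, Ifi47, Iigp1, Irgm2, Tgtp1, Uba7, Ube2l6 and the observations' genes were chosen after their values were seen. The members and lists were chosen with earlier results of these data known. Where an exon covered a printed stretch it was moved, or the next gene was taken. The calling rule and motif search were tested on simulated data. Python 3.11.15, numpy 2.4.6 and pandas 2.3.3 were used. Alternatives were the pseudocount, the filter, the scaling and summing of 3 related pairs, of which Ifit3 and Ifit3b alone share most of their 31-base words.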

Additional observations from a re-analysis of the deposited data

How the results depend on the processing

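All 9 settings kept more type I targets than gamma-leaning genes at least 2-fold higher where both were counted, and 0 members at least 2-fold lower. With a pseudocount of 5 TPM, 5 members, 2 type I targets and 5 further interferon-response genes were at least 2-fold higher (1.23% of all genes), against 11, 8 and 17; a larger pseudocount shrinks differences of low genes. The median of gamma-leaning genes was 0.20 when centred on the median of genes with a mean of at least 10 TPM. It was 0.17 under quantile normalization, which left 11 further interferon-response genes at least 2-fold higher. The share of all genes at least 2-fold higher was 3.88% when centred and 3.17% under quantile normalization. Of the 11 members, 9 kept their call under quantile normalization (Ifit1 and Oas3 did not) and 10 when centred (Ifit1 did not). With Ifit3 and Ifit3b, Mx1 and Mx2, and Oasl1 and Oasl2 each summed, 9 of 45 entries were at least 2-fold higher, beside 4.8% of all genes. Of these pairs, Ifit3 and Ifit3b alone share most of their 31-base words. No paired analysis was possible because each genotype has 1 library and no test was run. Unknown depth and the lack of replicates limit every value.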

Other observations

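Beyond the interferon lists, 411 measured genes held the ISRE letters in a promoter window, and 24 of them, or 5.84%, were at least 2-fold higher in the mutant pool. Among the 10970 genes without the letters 250 were, or 2.28%. WT values were below 1 TPM for 1700012A03Rik, Sirpb1a, Gm12185, Klk11, Chl1, Ccdc7b, Tex12 and Piwil4 of the 24. These passed the filter only through the mutant pool, and such genes were not counted among the 250. Most of the 24 had a mean below 5 TPM, and 10.4% of all genes from 1 to 5 TPM were at least 2-fold higher. Of the 24, those with a mean of at least 5 TPM were Clec4d (3.47 and 14.2 TPM), a lectin receptor of myeloid cells, the paired immunoglobulin-like receptors Pilra (10.6 and 23.3 TPM) and Pilrb1 (2.67 and 8.79 TPM), Arhgap15, Zbtb18, Coro2a, Homer1, Tdp1 and Mndal. Mndal (38.6 and 79.0 TPM), like the rarer Ifi206, belongs to the p200 family, so the remainder is not free of interferon-response genes. For the GAS letters the same shares were 2.49% of 964 genes with them and 2.40% of 10417 without. Abundance and cell type of the genes in each set were not matched.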
